A study of Mus musculus with 18 samples.

Results

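The response of aortic smooth muscle cells to TGF-beta was read from 6 of the 18 RNA-seq libraries of the series: 3 from cells given scramble siRNA and TGF-beta, and 3 from cells given scramble siRNA and no stimulus. These libraries were chosen by their labels, and all genes of the count table were taken, 57180 in all, of which 15832 had enough reads to be tested. The cells were cultured smooth muscle cells from the thoracic aorta of C57BL/6 mice, and both groups carried the same control siRNA, so that the stimulus was the labelled difference between them. The remaining 12 libraries hold cells given PDGF-BB, cells given siRNA against the integrin αV gene Itgav, or both. The form and dose of TGF-beta, the time of stimulation, the age of the mice, the number of passages and the siRNA sequences were not given in the sources used here. Nothing states that the 3 libraries of a group came from separate cultures or mice, so the p-values below measure the spread between libraries, which may be technical.

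TGF-beta binds a type II receptor kinase, which activates a type I receptor, and the type I receptor phosphorylates SMAD2 and SMAD3. These join SMAD4 and act in the nucleus with partner transcription factors, while inhibitory SMADs and the SKI and SKIL proteins limit the signal. In the aortic wall the pathway is known for driving contractile and matrix genes of smooth muscle, and αV integrins can release TGF-beta from its latent form. The account below goes past contractile and matrix genes, to the signalling genes, regulators, enzymes and noncoding RNAs that moved with the stimulus.

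Levels are given as CPM, the usual depth-scaled read count, of the tested genes, on TMM-scaled library totals, and the 3 values of a group are given in the order of replicates 1, 2 and 3. A gene was called higher or lower where edgeR's quasi-likelihood test, adjusted by Benjamini-Hochberg over all 15832 genes, gave p below 0.05. Fold changes are from the fitted model, with standard errors on the log2 scale. The 6 libraries held 18339304 to 21592916 estimated counts. Replicates differed from each other by more than counting noise (chi-square per degree of freedom of 2.2 to 8.03), the largest value being between TGF-beta replicates 2 and 3, and no library looked like a second copy of another. Of 12 smooth muscle markers, 9 were called higher and 3 lower, the latter being Mylk, Tpm2 and Des. The summed level of the 12 was 2636 to 2702 CPM unstimulated and 7428 to 8121 CPM under TGF-beta, most of it from Acta2 and Tagln. Myh11, the smooth muscle myosin heavy chain, was measured at 21.3, 22.8 and 24.7 CPM unstimulated and 28.8, 31.8 and 31.6 CPM under TGF-beta. Markers of other cells were also measured. The summed level of 10 adventitial fibroblast markers, some of which smooth muscle cells can express, was 840 to 906 CPM unstimulated and 887 to 963 CPM under TGF-beta, most of it from Gsn, gelsolin, with 3 called higher and 6 lower. Cd34, a progenitor marker, went from 79.3, 76.3 and 76.1 to 27.6, 27.6 and 26.8 CPM, and Dcn, the matrix proteoglycan decorin, from 28.6, 30.2 and 30.1 to 8.41, 9.03 and 7.06 CPM. Serpinf1, another of these fibroblast markers, rose from 35.5, 34.3 and 31.5 to 56.0, 63.1 and 68.0 CPM. Gsn and Pi16 were the others called higher. The summed level of 10 macrophage markers went from 17.7–20.7 to 9.32–11.0 CPM, and that of 8 mesothelial markers from 157–168 to 64.0–66.5 CPM. That of 12 endothelial markers went from 149–161 to 135–152 CPM. The endothelial sum holds Erg, which rose from 8.11, 7.15 and 5.76 to 45.9, 43.5 and 46.8 CPM. With 6 endothelial markers called lower and only Erg higher, the sum hides falls of other members. Unstimulated replicate 1 stood apart from replicates 2 and 3 in interferon-stimulated genes, named here after their values were seen. The level of Ifit1, an antiviral RNA-binding protein, was 8.66, 49.8 and 44.7 CPM in the unstimulated libraries and 7.49, 6.4 and 9.49 CPM under TGF-beta.

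Of the 15832 genes, 7639 were called (48.3%): 3710 higher (23.4%) and 3929 lower (24.8%). A called change of at least 2-fold was found upward for 870 genes (5.50%) and downward for 1076 genes (6.80%). Without unstimulated replicate 1 the calls numbered 3396 higher and 3568 lower, and 6728 of the 7639 calls (88.1%) were kept in the same direction. Unstimulated replicates 2 and 3, with the high Ifit1 levels, stay in this fit. It therefore cannot show how many calls follow the interferon difference. For 8702 genes (55.0%) the 3 libraries of one group did not overlap the 3 of the other. The median log2 fold change of all genes was -0.0078. With so many genes called, a list of genes is described below by its counts beside these shares, and a share near them is no result about the list. Bulk RNA cannot tell fewer cells of a type from less RNA per cell.

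**Figure D1:**
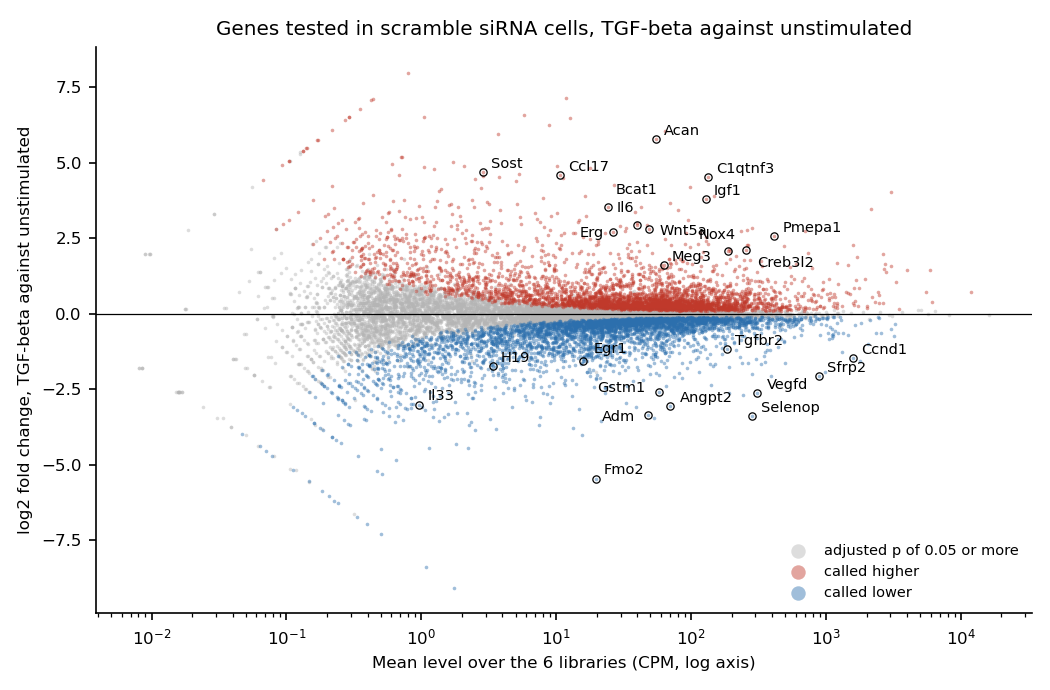
Each point is a gene tested: the horizontal axis gives its mean level over the 6 libraries in CPM (log axis) and the vertical axis its log2 fold change, TGF-beta against unstimulated. Red points were called higher (3710 genes), blue points called lower (3929 genes), and grey points did not pass. The circled genes run from Acan, aggrecan, at 5.77 to Fmo2, a flavin monooxygenase, at -5.46.

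**Figure D2:**
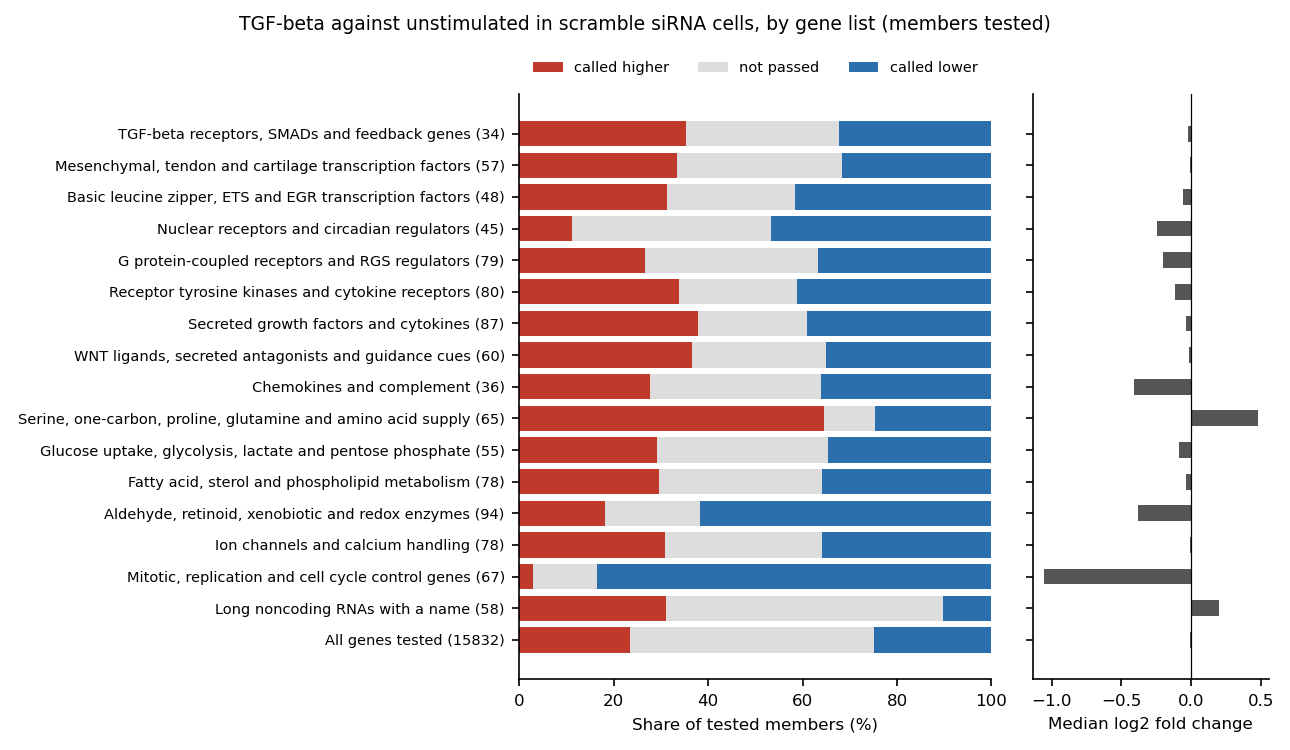
Left, the share of tested members of each of 16 gene lists that was called higher (red), called lower (blue) or did not pass (grey), with the number tested in brackets and all genes in the lowest bar. Right, the median log2 fold change of the same lists. The amino acid list has the highest share of members called higher (64.6%), and the cell cycle list the highest share called lower (83.6%), against 23.4% and 24.8% of all genes. List members were chosen with earlier results of these data known.

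Among 34 genes of the TGF-beta receptors, SMADs and their feedback regulators, 12 were called higher (35.3%, against 23.4% of all genes) and 11 lower (32.4%, against 24.8%). Their median log2 fold change was -0.02. Pmepa1, a membrane protein that keeps SMAD2 and SMAD3 from the receptor, was at 116, 118 and 125 CPM unstimulated and at 699.7, 685 and 739 CPM under TGF-beta (5.92-fold, log2 fold change 2.56 ± 0.051, adjusted p = 2.82e-20). Skil, a transcriptional co-repressor of SMAD complexes, went from 46.4, 47.5 and 49.1 to 208, 209 and 175 CPM (4.14-fold). Both genes were higher in every TGF-beta library than in any unstimulated one, and 55.0% of all genes likewise did not overlap between the groups. Ldlrad4, a relative of Pmepa1, rose 2.96-fold, Tgif1, a homeodomain co-repressor, 2.23-fold, and the inhibitory SMAD gene Smad7 1.53-fold.

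The receptors of the ligand itself moved in opposite directions. Tgfbr1, the type I receptor, rose 1.36-fold, from 71.3, 79 and 73.2 to 107, 103 and 94.2 CPM. Tgfbr2, the type II receptor, fell from 246, 261 and 256 to 111, 123 and 106 CPM (2.25-fold lower, log2 fold change -1.17 ± 0.053). The co-receptor Tgfbr3 fell further, from 25.4, 28.5 and 26.5 to 6.9, 7.9 and 6.02 CPM. Smad3 fell 1.94-fold, whereas Smad2 and Smad4 did not pass (log2 fold changes of -0.087 and -0.083, adjusted p of 0.229 and 0.172). The BMP-side SMAD genes Smad1 and Smad9 were called lower (log2 fold changes of -0.80 and -0.78). Of the ligands, Tgfb1 rose 1.76-fold from 17.2, 15.3 and 13.7 to 25.8, 27.8 and 27.5 CPM, Tgfb3 fell by 0.31 on the log2 scale, and Tgfb2 did not pass (log2 fold change -0.074, adjusted p = 0.260).

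Transcription factors of mesenchyme, tendon and cartilage were called in both directions. Of 57 tested, 19 were higher (33.3%, against 23.4% of all genes) and 18 lower (31.6%, against 24.8%). The highest folds among well-measured members were those of Nfatc4, a calcium-responsive factor, Snai1, a repressor known from epithelial-mesenchymal transition, and Six4, a homeodomain factor. Nfatc4 went from 4.08, 4.62 and 3.44 to 12.2, 15.1 and 12.5 CPM (3.28-fold), Snai1 from 3.8, 2.99 and 2.08 to 8.36, 8.06 and 9.89 CPM (2.95-fold) and Six4 from 5.32, 5.23 and 5.67 to 14.7, 14.9 and 14.1 CPM (2.7-fold). That no library of one group reached into the other was a condition for picking these genes, and 55.0% of all genes meet it. Scx, the tendon regulator scleraxis, rose 2.63-fold from 9.35, 7.97 and 9.15 to 24.6, 22.4 and 22.8 CPM. Mkx, another tendon homeobox gene, rose 1.83-fold, Foxc2, a forkhead factor of vessel walls, 2.5-fold, and Runx1, a runt-domain factor, 2.05-fold. Sox9, the cartilage regulator, rose by a smaller step (1.28-fold, 67.9, 63.7 and 70.3 to 89.6, 81.4 and 87.1 CPM), and its partner Sox6 rose 2.02-fold.

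Close relatives of these factors moved the other way. Snai2 fell from 42.1, 41.7 and 42.3 to 18.9, 18.9 and 16.9 CPM (2.31-fold lower, log2 fold change -1.21 ± 0.063), opposite to Snai1. Twist1 fell 1.7-fold, Zeb1 1.31-fold and Zeb2 1.39-fold. The 4 Id genes, which encode dimerisation partners that block basic helix-loop-helix factors and are known BMP targets, were all called lower. Id1 went from 90.8, 85.8 and 89.8 to 29.6, 29 and 31.4 CPM (2.96-fold lower) and Id2 from 102, 99.4 and 98.8 to 31.1, 29.3 and 27.5 CPM (3.42-fold lower), while Id3 and Id4 fell 1.75-fold and 2.15-fold. Runx2 and Mef2c did not pass (adjusted p of 0.935 and 0.687).

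In the list of basic leucine zipper, ETS and EGR factors, 15 of 48 were called higher (31.25%, against 23.4% of all genes) and 20 lower (41.7%, against 24.8%). Erg, an ETS factor best known from endothelium, rose from 8.11, 7.15 and 5.76 to 45.9, 43.5 and 46.8 CPM (6.46-fold, log2 fold change 2.69 ± 0.11, adjusted p = 4.31e-15). The endothelial markers Pecam1 and Cdh5 did not pass: Pecam1 was at 28.6, 25.8 and 22.6 CPM unstimulated and 25.5, 21.6 and 19.1 CPM under TGF-beta, and Cdh5 went from 29.5, 27.5 and 25.1 to 24.9, 26.1 and 19.5 CPM (adjusted p of 0.137 and 0.108). Erg was the only one of the 12 endothelial markers called higher, against 6 called lower. Creb3l2, a membrane-bound factor that serves secretory capacity, rose from 91.1, 100.3 and 99.2 to 436, 449.9 and 369 CPM (4.32-fold), and its relative Creb3l1 rose 1.44-fold. The ETS gene Etv1 rose 1.91-fold, Elk3 1.73-fold, and Atf4, the regulator of amino acid stress, 1.54-fold from 129.5, 113 and 114 to 182, 177 and 189.7 CPM. Egr1, an immediate early factor, went from 22.7, 26.5 and 21.7 to 6.85, 9.35 and 7.64 CPM (2.96-fold lower), and the C/EBP factor genes Cebpb from 19.7, 17.9 and 18.4 to 6.27, 6.34 and 9.66 CPM and Cebpd from 52.8, 48.5 and 49 to 19.1, 19.6 and 22.2 CPM. Jun and Fos fell 1.33-fold and 1.67-fold, while Junb rose 1.68-fold.

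Nuclear receptors and circadian regulators were called lower more often than higher. Of 45 tested, 21 were lower (46.7%, against 24.8% of all genes) and 5 higher (11.1%, against 23.4%). Their median log2 fold change was -0.25. Nr3c1, the glucocorticoid receptor, fell from 259, 281 and 282 to 146, 146 and 134 CPM (1.93-fold lower, log2 fold change -0.95 ± 0.052). Nr3c2, the mineralocorticoid receptor, fell 2.21-fold, and Nr1h3, an oxysterol receptor, 2.45-fold. Bhlhe40, a repressor in the circadian clock, was the best-measured rise of at least 2-fold, from 10.7, 12.4 and 11.4 to 34.3, 31.9 and 31.8 CPM (2.84-fold). The clock genes Clock, Bmal1, Per2 and Cry1 did not pass (adjusted p from 0.146 to 0.828), and Dbp, a clock output gene, fell 1.81-fold. Counted by the functional terms deposited with the table, 532 genes were sequence-specific transcription factors, of which 116 were higher (21.8%) and 139 lower (26.1%), shares close to those of all genes.

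**Figure D3:**
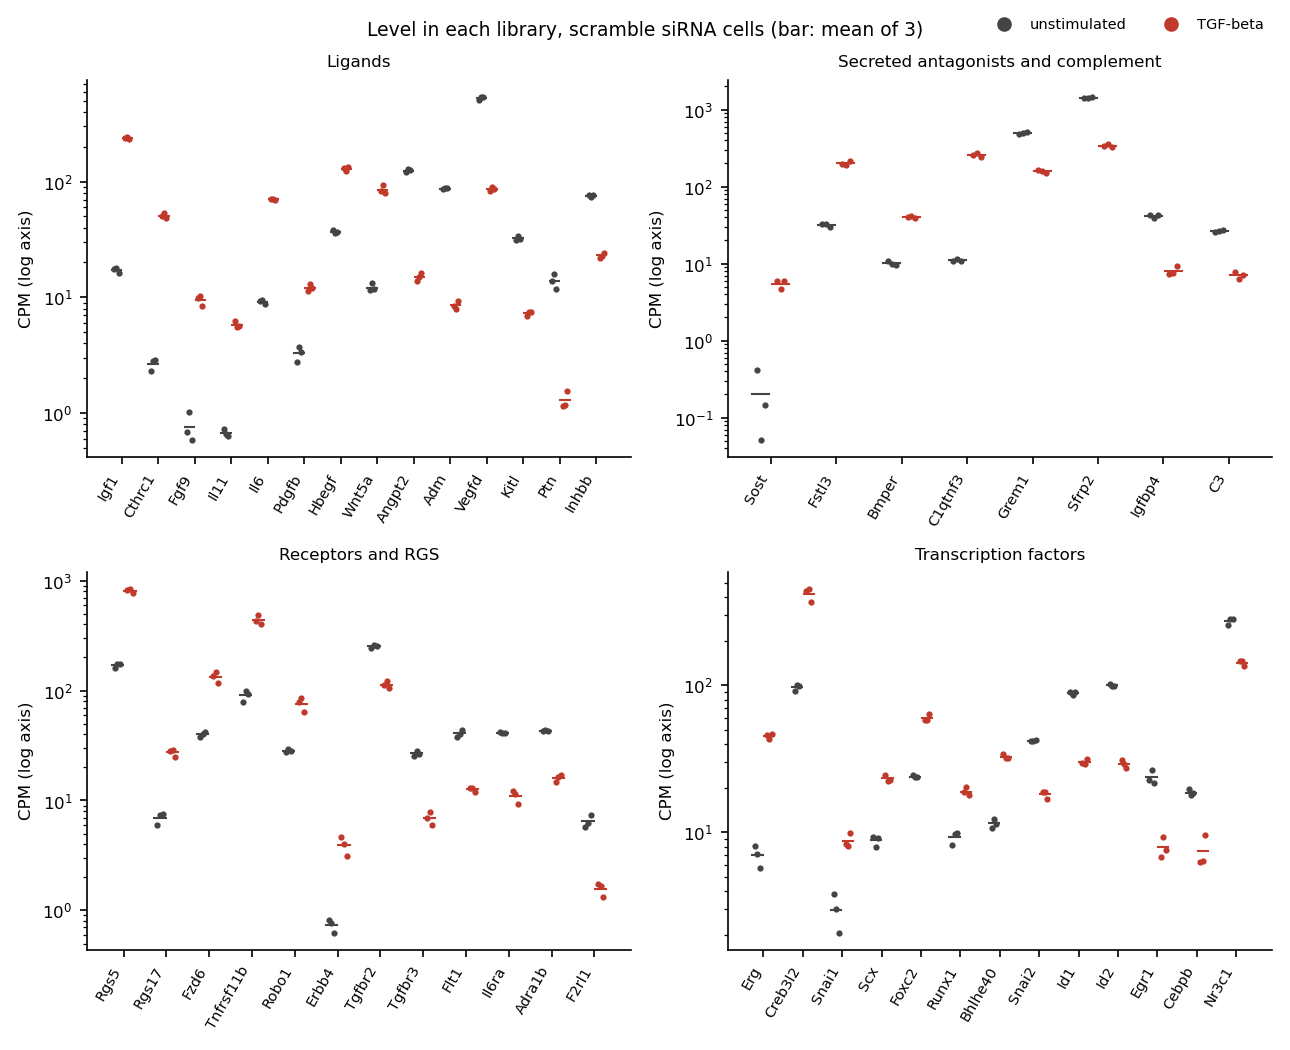
Level of each gene in the 6 scramble siRNA libraries in CPM (log axis), as 4 panels of ligands, secreted antagonists with complement, receptors with RGS genes, and transcription factors. Grey points are the 3 unstimulated libraries, red points the 3 TGF-beta libraries, and short bars their means. The groups do not overlap for any gene drawn, as for Igf1 at 17.1 against 239.5 CPM or Adm at 86.8 against 8.55 CPM. Non-overlap was a condition in parts of the naming rule and holds for 55.0% of all genes.

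G protein-coupled receptors and RGS genes, whose products shorten the G protein signal, were called in both directions. Of 79 tested, 21 were higher (26.6%, against 23.4% of all genes) and 29 lower (36.7%, against 24.8%). Their median log2 fold change was -0.20. Of 10 RGS genes tested, 5 were called higher (23.4% of all genes were) and 1, Rgs10, lower (24.8% of all genes were). Rgs5, a pericyte and arterial smooth muscle gene, went from 162, 175 and 176 to 822, 832 and 776 CPM (4.74-fold), Rgs17 from 6.0, 7.36 and 7.55 to 28, 29 and 25.1 CPM (3.93-fold), and Rgs4, a regulator of Gq and Gi signals, from a mean of 1.93 to 126 CPM. The WNT receptor Fzd6 rose from 37.8, 40.1 and 41.7 to 134, 147 and 118 CPM (3.34-fold), whereas Fzd7 fell 1.76-fold and Fzd4 1.6-fold. Receptors for lipids, proteases and noradrenaline were among the falls. Adra1b, the alpha-1B adrenoceptor, went from 42.9, 43.7 and 43.3 to 14.7, 16.2 and 16.9 CPM (2.71-fold lower), and F2rl1, the protease-activated receptor PAR2, from 5.77, 6.24 and 7.41 to 1.74, 1.67 and 1.33 CPM (4.08-fold lower). The sphingosine-1-phosphate receptor S1pr3 fell 3.45-fold, from 7.33, 5.12 and 6.25 to 1.68, 1.72 and 2.03 CPM. The angiotensin receptor Agtr1a was measured at few reads, 1.37, 2.03 and 1.84 CPM unstimulated and 0.638, 0.376 and 0.405 CPM under TGF-beta, and was called lower (adjusted p = 0.00126). Ednra, the endothelin A receptor, was also measured at few reads and did not pass (0.687, 0.761 and 0.920 against 0.348, 0.591 and 0.579 CPM, adjusted p = 0.233).

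Receptor tyrosine kinases, cytokine receptors and guidance receptors were called more often than all genes in both directions. Of 80 tested, 27 were higher (33.75%, against 23.4%) and 33 lower (41.25%, against 24.8%). Tnfrsf11b, which encodes osteoprotegerin, a secreted decoy receptor, rose from 78, 99.6 and 93.8 to 427, 482 and 405 CPM (4.85-fold, log2 fold change 2.28 ± 0.077). Robo1 and Robo2, receptors for SLIT proteins, rose 2.7-fold and 2.59-fold, and their ligand Slit2 rose 2.06-fold from 209, 218 and 232 to 449, 502 and 405 CPM. Clcf1, a ligand of the interleukin-6 family, rose 2.22-fold. Ghr, the growth hormone receptor, rose from 488, 517 and 525 to 966, 989.5 and 931 CPM and Pdgfrb, the PDGF receptor beta, from 518, 513 and 509.7 to 709, 703 and 692 CPM, while Pdgfra fell 1.76-fold. Receptors of the interleukin-6 family were lower together: Il6ra went from 41.6, 40.9 and 41.5 to 12.2, 11.6 and 9.37 CPM (3.73-fold lower), Lifr from 13, 16.3 and 17.7 to 5.63, 8.17 and 5.55 CPM, and the shared signalling chain Il6st from 617, 649.6 and 646 to 342, 335 and 338 CPM. Flt1, a VEGF receptor and decoy that is also among the 12 endothelial markers, fell from 37.8, 40.5 and 43.9 to 13, 13 and 11.9 CPM (3.22-fold lower). Axl did not pass (537 against 529 CPM, adjusted p = 0.614).

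Secreted growth factors and cytokines were called in both directions, with many large changes. Of 87 tested, 33 were higher (37.9%, against 23.4% of all genes) and 34 lower (39.1%, against 24.8%). At least 2-fold changes numbered 18 higher and 17 lower, and were found in 5.50% and 6.80% of all genes. Igf1, insulin-like growth factor 1 (chr10:87858265-87937042, plus strand in mm10), rose from 17.5, 17.8 and 16.1 to 238, 245 and 235 CPM (14-fold, log2 fold change 3.81 ± 0.071, adjusted p = 1.49e-20). Cthrc1, a secreted glycoprotein known from injured arteries, rose from 2.29, 2.79 and 2.86 to 50.5, 53.5 and 48.4 CPM (19.2-fold). Fgf9, a fibroblast growth factor, went from 0.687, 1.01 and 0.581 to 9.81, 10.3 and 8.45 CPM (12.5-fold). Each of the 3 TGF-beta libraries stood at least an order of magnitude above the unstimulated mean for Igf1 and Cthrc1.

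Interleukin ligands of the gp130 receptor rose while, as given above, several of its receptor genes fell. Il6 went from 9.3, 9.49 and 8.72 to 70.9, 70.4 and 69.8 CPM (7.67-fold, log2 fold change 2.94 ± 0.10), and Il11, a cytokine known from fibroblasts under TGF-beta, from 0.733, 0.660 and 0.630 to 6.27, 5.48 and 5.61 CPM (8.5-fold). Lif rose 1.59-fold. The mitogen genes Hbegf, Pdgfc, Pdgfb and Pdgfa rose 3.47-, 3.18-, 3.68- and 2.36-fold, Pdgfa from 32.8, 32.9 and 37.2 to 77.5, 79.5 and 86.3 CPM. Fgf2, a fibroblast growth factor, rose 1.85-fold. The matricellular gene Ccn4 rose 7.15-fold from 65.5, 71 and 73 to 505, 515 and 478 CPM, and Ccn2, a widely used TGF-beta target, from 1265, 1370 and 1388 to 4184, 4218 and 4130 CPM. Edn1, endothelin 1, rose 1.49-fold and Inhba, the activin A subunit, 1.33-fold, from 332, 349 and 350.2 to 464, 488 and 417 CPM.

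Factors that act on vessels and progenitors were among the falls. Adm, the vasodilator adrenomedullin, went from 85.6, 87.2 and 87.6 to 8.47, 7.85 and 9.32 CPM (10.2-fold lower, log2 fold change -3.35 ± 0.093, adjusted p = 7.71e-18). Angpt2, a ligand of the TIE2 receptor, went from 120.1, 127 and 126 to 13.9, 14.8 and 16.4 CPM (8.28-fold lower), and Vegfd, a lymphatic growth factor, from 509, 537 and 534 to 82.7, 89.9 and 85.7 CPM (6.11-fold lower). The groups did not overlap for any of these genes, nor for 55.0% of all genes. Adm and Angpt2 were named on that condition. Ptn, pleiotrophin, fell from 13.7, 15.8 and 11.9 to 1.16, 1.18 and 1.56 CPM, Tnfsf15 from 24.7, 29.5 and 25.2 to 2.55, 3.23 and 3.07 CPM, and Kitl, stem cell factor, from 31.3, 33.7 and 31.9 to 6.85, 7.47 and 7.52 CPM. Vegfa moved the other way and rose 1.79-fold, from 52, 56.6 and 56.6 to 102, 107 and 86.9 CPM. Inhbb, the activin B subunit, fell 3.29-fold, opposite to Inhba. Csf1, the macrophage growth factor, fell from 1358, 1419 and 1418 to 846, 842 and 847 CPM (1.65-fold lower), and macrophage markers moved beside it. Of 10, C1qa, C1qb and Itgam were each at 0 in 4 of the 6 libraries, and of the 5 that could be tested, 4 were called lower and Ptprc higher. Lyz2, a macrophage lysozyme, went from 9.07, 8.68 and 11.4 to 4.53, 4.73 and 3.94 CPM. The part of these markers in the changes of cytokine genes was not tested.

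WNT ligands and secreted antagonists included members of at least 2-fold in both directions, 13 higher and 7 lower of 60 tested. Such changes were found in 5.50% and 6.80% of all genes. Calls of any size made up 36.7% higher and 35.0% lower, against 23.4% and 24.8% of all genes. Wnt5a, a ligand of the non-canonical WNT pathway, went from 11.5, 13.2 and 11.7 to 83.4, 92.7 and 79.2 CPM (7.02-fold, log2 fold change 2.81 ± 0.080). Sost, which encodes the WNT inhibitor sclerostin, was near the lower limit in unstimulated cells at 0.412, 0.0507 and 0.145 CPM and was at 5.98, 4.68 and 5.9 CPM under TGF-beta. Sfrp2, a secreted frizzled-related protein that binds WNT ligands, fell from 1405, 1421 and 1454 to 335, 363 and 329 CPM (4.17-fold lower), and Dkk3 and Sfrp1 fell 1.67-fold and 1.54-fold.

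Antagonists of BMP and activin moved in both directions. Grem1, a BMP antagonist, fell from 479, 503 and 513 to 163, 160.5 and 148 CPM (3.16-fold lower). Fstl3, a follistatin-like activin inhibitor, rose from 32.6, 32.9 and 29.9 to 194, 192 and 216 CPM (6.32-fold) and Bmper, an extracellular BMP modulator, from 10.7, 9.99 and 9.49 to 40.3, 41.6 and 39.4 CPM (4.02-fold). Among binding proteins of insulin-like growth factors, Igfbp4 fell from 43.4, 39.6 and 43 to 7.31, 7.53 and 9.37 CPM (5.21-fold lower) and Igfbp3 fell 2.17-fold, while Igfbp2 and Igfbp7 rose 1.59-fold and 1.58-fold. The Igf1 rise was thus accompanied by changes of its binding proteins in both directions.

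Chemokines and complement genes gave 10 calls higher (27.8%, against 23.4% of all genes) and 13 lower (36.1%, against 24.8%) of 36 tested. Their median log2 fold change was -0.41, and ran from -0.45 to -0.11 under other settings or without 1 library. C1qtnf3, a secreted relative of the complement protein C1q, rose from 10.8, 11.4 and 10.9 to 256, 272 and 241 CPM (23.2-fold, log2 fold change 4.54 ± 0.076). C3, the central complement component, fell from 25.9, 26.7 and 27.3 to 7.89, 6.24 and 7.12 CPM, and Serping1, the C1 inhibitor, from 60.4, 60.6 and 62.6 to 16.5, 17.1 and 20.1 CPM. Of the chemokines, Cx3cl1 and Cxcl16 rose 2.37-fold and 3.53-fold, while Ccl2 and Ccl7 fell 2.31-fold and 2.62-fold. Cxcl12 was at 3587, 3609 and 3575 CPM unstimulated and 3684, 3655 and 3799 CPM under TGF-beta and did not pass (adjusted p = 0.122). By the deposited functional terms, 165 genes were cytokines, growth factors or hormones, of which 63.0% were called, against 48.3% of all genes.

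A list of genes that supply amino acids was called higher more often than all genes. Its members were chosen with earlier results of these data known, and no deposited term was counted beside it. Its share therefore describes the list and is no test of the class. The list covers the serine, folate, proline and glutamine pathways, amino acid transporters, aminoacyl-tRNA synthetases and other targets of the factor ATF4. Of 65 tested members, 42 were called higher (64.6%, against 23.4% of all genes) and 16 lower (24.6%, against 24.8%). Their median log2 fold change was 0.48. Bcat1, the cytosolic branched-chain aminotransferase (chr6:144993835-145076184, minus strand in mm10), rose from 3.9, 3.5 and 3.92 to 44.4, 40.4 and 48.1 CPM (11.7-fold, log2 fold change 3.55 ± 0.094, adjusted p = 3.19e-18). Aldh1l2, a mitochondrial folate enzyme, rose from 7.19, 7.71 and 5.38 to 83.3, 85.1 and 68.5 CPM (11.7-fold). Pycr1 and Aldh18a1, which make proline from glutamate, rose from 6.0, 4.87 and 6.39 to 26.5, 22.8 and 24.4 CPM and from 42.7, 48 and 44 to 140.1, 144 and 142 CPM. Proline breakdown was represented by Aldh4a1, which fell 1.85-fold.

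Among folate enzymes, some picked here after their values were seen, changes went in both directions. Mthfd2 and Shmt2, of mitochondria, rose 3.06-fold and 1.52-fold, Mthfd2 from 31.8, 27.9 and 29.6 to 92.8, 86.7 and 93.5 CPM. Their cytosolic counterparts Mthfd1 and Shmt1 fell 1.32-fold and 2.32-fold, and Aldh1l1, the cytosolic relative of Aldh1l2, fell 1.98-fold. In serine synthesis Phgdh rose 1.48-fold (137, 119 and 117 to 186, 175 and 192 CPM) and Psph 2.33-fold, while Psat1 did not pass (adjusted p = 0.496). Asns, asparagine synthetase, rose from 47.5, 40.6 and 40.6 to 122, 118 and 122 CPM (2.81-fold). Glul, which makes glutamine, fell 1.7-fold. Of the transporters, Slc6a9 for glycine rose 3.2-fold, Slc6a6 for taurine 3.1-fold from 283, 293 and 299 to 892, 959 and 862 CPM, and Slc1a4 2.56-fold, while Slc7a2 for arginine fell 3.6-fold. The tRNA synthetases Aars, Gars, Iars, Nars and Tars rose by 1.41- to 1.75-fold. ATF4 targets did not all move alike: Trib3, Nupr1 and Chac1 rose 4.32-, 4.03- and 2.08-fold, Ddit3 and Sesn2 fell 1.26-fold and 1.63-fold, and Gdf15 and Ddit4 did not pass (adjusted p of 0.992 and 0.871).

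Promoter sequences were looked at because ATF4 is known to act through the C/EBP-ATF response element, whose core TGATGCA was searched on both strands. RefSeq promoter windows of 300 bases (250 before to 50 after an annotated start, GRCm38.p6) were at hand for 11202 of the 15832 tested genes (70.8%), in 14331 windows. The core was present in 10 of 34 windows of list members called higher (29.4%), 2.00% of all windows, 3.38% of windows of genes at least 2-fold higher and 1.84% of windows of genes at least 2-fold lower. A match describes letters and does not show a site in use, and members were placed on the list partly as known targets of ATF4. The 3 members with the highest fold change that hold the core are printed to show where it lies, up to 30 bases past the start, 5′ to 3′ on the gene's strand, with the core in capitals (TGCATCA is the same core on the other strand). It lies 103, 109 and 123 bases before the start in Pycr1 (chr11:120643719-120643998, minus strand), Nupr1 (chr7:126625441-126625720, minus strand) and Slc6a9 (chr4:117849100-117849379, plus strand).
Pycr1: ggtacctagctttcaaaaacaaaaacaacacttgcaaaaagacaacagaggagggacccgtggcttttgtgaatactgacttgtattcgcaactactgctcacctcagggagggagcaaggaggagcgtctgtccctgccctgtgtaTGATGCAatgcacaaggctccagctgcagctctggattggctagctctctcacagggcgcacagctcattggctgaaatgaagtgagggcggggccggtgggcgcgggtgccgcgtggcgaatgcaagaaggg
Nupr1: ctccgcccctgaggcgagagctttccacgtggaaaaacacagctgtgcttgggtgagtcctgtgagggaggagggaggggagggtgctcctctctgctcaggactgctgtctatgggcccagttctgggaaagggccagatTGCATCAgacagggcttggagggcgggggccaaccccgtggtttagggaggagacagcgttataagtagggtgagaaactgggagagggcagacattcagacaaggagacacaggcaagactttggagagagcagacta
Slc6a9: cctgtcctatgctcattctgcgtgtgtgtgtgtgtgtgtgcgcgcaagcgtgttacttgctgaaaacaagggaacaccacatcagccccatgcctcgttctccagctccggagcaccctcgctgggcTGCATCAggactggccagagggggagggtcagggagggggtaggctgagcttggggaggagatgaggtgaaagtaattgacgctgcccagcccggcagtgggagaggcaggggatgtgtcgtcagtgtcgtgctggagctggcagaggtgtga
These are the genes given above at 4.25-, 4.03- and 3.2-fold higher under TGF-beta. In the same windows the SMAD-related letters CAGACA were present in 24.7% of those of genes at least 2-fold higher, 17.2% of those of genes at least 2-fold lower and 16.3% of all. The AP-1 letters TGANTCA were present in 11.0%, 7.68% and 5.43%, the TEAD letters GGAATG in 12.9%, 14% and 12.6%, and the E-box CACGTG in 7.78%, 6.35% and 9.50%.

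**Figure D4:**
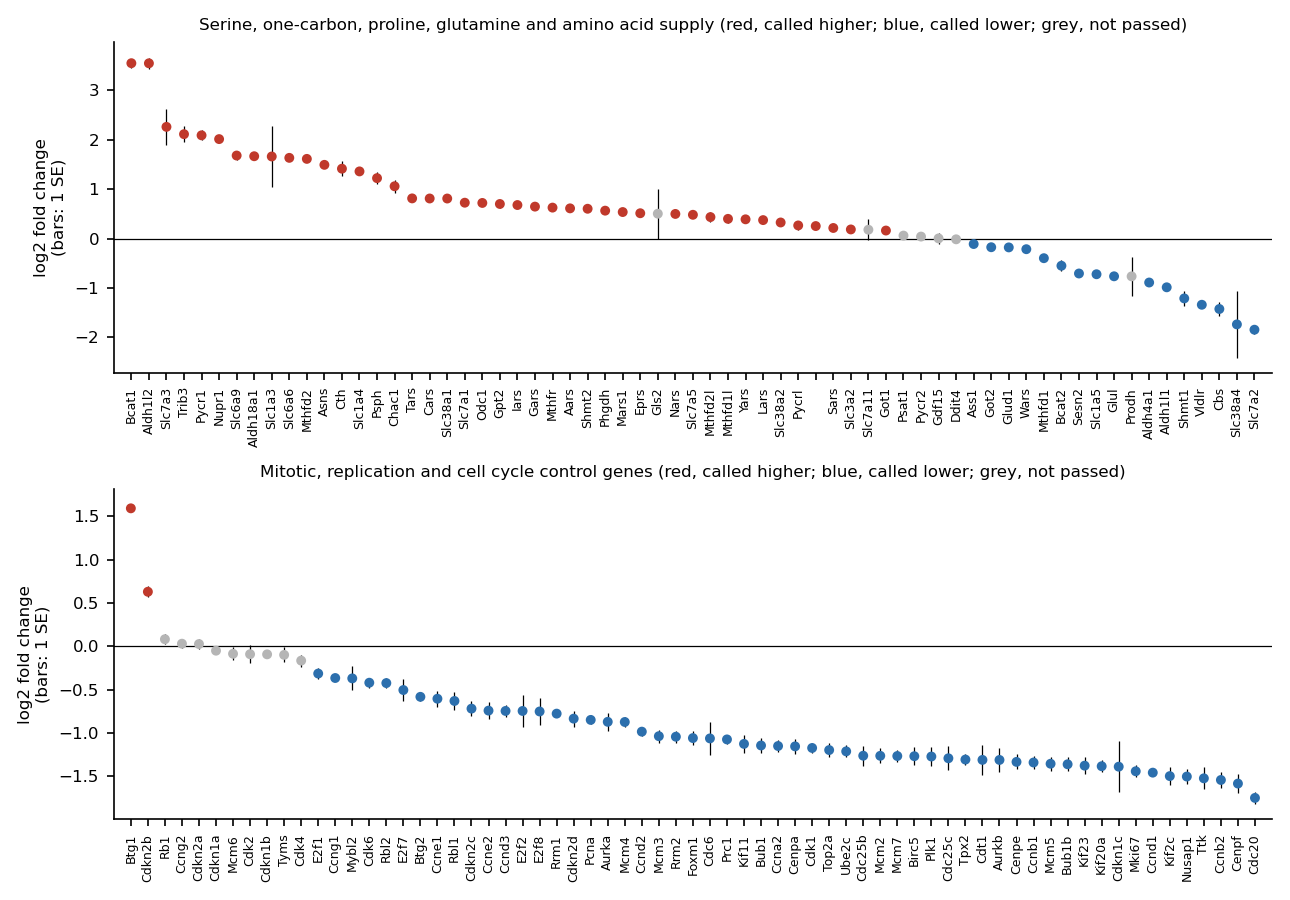
Log2 fold change (vertical axis, bars of 1 standard error) of each tested member of the amino acid list (upper panel, 65 genes) and of the cell cycle list (lower panel, 67 genes), in order of fold change. Red points were called higher, blue lower, and grey did not pass. A point with no name is drawn in the upper panel, where 42 members are red, led by Bcat1 and Aldh1l2, while in the lower panel 56 are blue, ending with Cdc20 at -1.75.

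Genes of glucose use gave no such tilt: 16 of 55 were higher (29.1%, against 23.4% of all genes) and 19 lower (34.5%, against 24.8%). Their median log2 fold change was -0.09. The changes sat at particular steps. Slc16a3, a lactate exporter, rose from 2.47, 2.28 and 1.6 to 8.24, 9.62 and 9.95 CPM (4.36-fold), Pfkfb3, an activator of glycolysis, from 28.4, 29.2 and 30.4 to 73.2, 68.1 and 64.8 CPM (2.34-fold), and Gfpt2 and Gfpt1, the entry to hexosamine synthesis, 2.71-fold and 1.8-fold. Hk2, a hexokinase, rose 1.55-fold from 20.5, 25.1 and 23.1 to 36.6, 37.6 and 32.2 CPM. The lactate dehydrogenase subunits both fell, Ldhb from 159, 141 and 146 to 65.9, 61.2 and 67.6 CPM (2.29-fold lower) and Ldha by a small step (1.13-fold lower). Pcx, pyruvate carboxylase, fell 2.15-fold and Pygm, muscle glycogen phosphorylase, 4.26-fold. Epas1, which encodes the hypoxia factor HIF-2 alpha, fell from 89.1, 98.7 and 97.9 to 31.6, 30.9 and 29.5 CPM (3.1-fold lower), and Slc2a1, the main glucose carrier, did not pass (adjusted p = 0.278).

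Lipid genes were called in both directions, with large changes in single members. Of 78 tested, 23 were higher (29.5%, against 23.4% of all genes) and 28 lower (35.9%, against 24.8%). Sphk1, which makes sphingosine-1-phosphate, rose from 3.53, 2.64 and 3.1 to 20.5, 19.1 and 19.4 CPM (6.33-fold), and Ptgs2, the inducible cyclooxygenase, from 109, 117 and 115 to 363, 351 and 316 CPM (3.02-fold). Abcg1, a sterol exporter, rose 7.96-fold, while its partner in efflux Abca1 fell 1.78-fold and Apoe, an acceptor apolipoprotein, fell from 40.1, 39.3 and 36.1 to 7.37, 6.88 and 7.41 CPM. Lpl, lipoprotein lipase, fell from 14.6, 16.5 and 13.4 to 2.32, 2.58 and 3.65 CPM (5.2-fold lower). Fasn and Scd2 of fatty acid synthesis rose 1.27-fold and 1.32-fold, whereas Scd1 fell 1.29-fold (371, 379 and 389.5 to 300.5, 296 and 285 CPM). Enzymes of mitochondrial fatty acid oxidation such as Hadha, Acadvl and Cpt2 did not pass (adjusted p from 0.314 to 0.654).

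Enzymes that handle aldehydes, retinoids, foreign compounds and oxidants were mostly lower. Of 94 tested, 58 were called lower (61.7%, against 24.8% of all genes) and 17 higher (18.1%, against 23.4%). At least 2-fold lower were 29, as were 6.80% of all genes. The median log2 fold change of the list was -0.38. By the deposited term for oxidoreductases the tilt was smaller: of 92 tested, 34 were lower (37.0%), 7 of them at least 2-fold, and 16 higher, with a median of -0.088. Selenop, a secreted selenium carrier, fell from 524, 527 and 514 to 49.8, 50.2 and 49.1 CPM (10.5-fold lower, log2 fold change -3.39 ± 0.046, adjusted p = 8.04e-23). The glutathione transferase Gstm1 fell from 107, 97.8 and 94.2 to 16.9, 15.8 and 16.6 CPM (6.08-fold lower), and Gstm2, Gstm5, Gstm6, Gstm7, Gsta4, Gstt1 and Gstp1 were called lower with it, by 1.37- to 4.97-fold. Genes of the Gstm cluster are close in sequence, so reads may be shared among them. Maoa, monoamine oxidase A, fell from 395, 404 and 404 to 129, 130.5 and 132 CPM (3.08-fold lower), Dhrs9, a retinol dehydrogenase, from 21.1, 24.8 and 22.1 to 3.77, 3.28 and 3.12 CPM, and Akr1c14, an aldo-keto reductase, from 69.2, 74.5 and 72.5 to 15.4, 16.4 and 15.9 CPM. The mesothelial marker sum fell beside these genes, with 4 of 7 tested markers called lower and Krt8 at 0 in every unstimulated library, and its part in the falls was not tested.

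Retinoid genes moved in both directions. Aldh1a1, which makes retinoic acid, fell 1.61-fold (1825, 1782 and 1811 to 1096, 1095 and 1176 CPM), and Cyp26b1, which breaks it down, fell 2.42-fold. Rdh10, a retinol dehydrogenase, rose 1.38-fold. On the oxidant side Nox4, an NADPH oxidase that makes hydrogen peroxide, rose from 69.5, 74.2 and 72.9 to 309, 316 and 280.0 CPM (4.18-fold, log2 fold change 2.06 ± 0.061). Of the classic targets of the antioxidant factor NRF2, Nqo1 and Gsr rose 2.66-fold and 1.66-fold, Hmox1 and Gclc fell 1.19-fold and 1.28-fold, and Gclm, Srxn1 and Txnrd1 did not pass (adjusted p from 0.176 to 0.926).

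Ion channels and calcium-handling genes were called 24 higher (30.8%, against 23.4% of all genes) and 28 lower (35.9%, against 24.8%) of 78. Piezo2, a mechanosensitive channel, rose from 10.9, 11.5 and 10.5 to 81.9, 96.8 and 73.3 CPM (7.68-fold, log2 fold change 2.94 ± 0.10). Gja4, the gap junction protein connexin 37, rose from 0.962, 1.37 and 0.775 to 15, 13.3 and 16.3 CPM (14.3-fold), while Gja5, connexin 40, was called lower (4.21 to 1.22 CPM) and Gja1, connexin 43, rose by a small step with overlapping groups (220.4, 228 and 212 to 247, 238 and 227 CPM). Slc8a1, the sodium-calcium exchanger, rose from 44.5, 50.6 and 52 to 162, 159 and 141 CPM (3.14-fold), and the calcium channel subunits Cacna1c and Cacna2d1 rose 1.5-fold and 1.72-fold. The store-operated pair Stim1 and Orai1 fell 1.27-fold and 1.29-fold. Clca3a1, a chloride channel accessory gene, fell from 112, 143 and 131 to 31.8, 35.4 and 32.1 CPM (3.88-fold lower).

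Cell cycle genes were lower: 56 of 67 tested members were called lower (83.6%, against 24.8% of all genes) and 2 higher, with a median log2 fold change of -1.06. The list is made of mitotic, replication and cyclin genes. By the broader cell cycle term deposited with the table, 228 genes were tested, of which 83 were lower (36.4%) and 46 higher (20.2%), and their median was -0.036. Cdc20, an activator of the anaphase-promoting complex, fell from 52.1, 50.7 and 53.7 to 15.7, 15.6 and 15.2 CPM (3.36-fold lower, log2 fold change -1.75 ± 0.073, adjusted p = 8.04e-15), Cenpf, a kinetochore gene, from 43.6, 53.3 and 48.3 to 15.7, 17.1 and 15.6 CPM, and Ccnb2, a mitotic cyclin, from 29.4, 25 and 28.6 to 8.94, 10.1 and 9.43 CPM. Replication genes fell with mitotic ones, as Mcm5 (2.56-fold lower) and Rrm2 (2.06-fold lower) show. Ccnd1, the cyclin of early G1, fell from 2322, 2326 and 2339 to 873, 852 and 820.0 CPM (2.75-fold lower), and Ccnd2 and Ccnd3 fell 1.98-fold and 1.68-fold. Btg1, an antiproliferative gene, rose from 68.4, 73.9 and 74 to 216, 213 and 222 CPM (3.01-fold), and Cdkn2b, the CDK inhibitor p15 known as a TGF-beta target, rose 1.55-fold from 42.9, 36.5 and 40.7 to 59.4, 62.5 and 63.8 CPM. The inhibitor genes Cdkn1a and Cdkn1b did not pass (adjusted p of 0.296 and 0.0797).

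The cell cycle homology region, a promoter element through which mitotic genes are repressed outside division, was searched as TTTGAA. These letters were present in 21 of 50 windows of list members called lower (42.0%), against 12.5% of all windows. They were in 17.7% of windows of genes at least 2-fold lower and 12.2% of windows of genes at least 2-fold higher. A match describes letters and does not show a site in use. Members were chosen with earlier results of these data known, and mitotic genes are the class this element is known from. The share therefore describes the list and is no test of the response to TGF-beta. The 3 members with the largest falls that hold TTTGAA are printed as above, with the letters in capitals. They begin 18 bases before the start in Cdc20 (chr4:118437314-118437593, minus strand), 2 bases after it in Cenpf (chr1:189688057-189688336, minus strand), and 167 bases before and 4 bases after it in Ccnb2 (chr9:70421525-70421804, minus strand).
Cdc20: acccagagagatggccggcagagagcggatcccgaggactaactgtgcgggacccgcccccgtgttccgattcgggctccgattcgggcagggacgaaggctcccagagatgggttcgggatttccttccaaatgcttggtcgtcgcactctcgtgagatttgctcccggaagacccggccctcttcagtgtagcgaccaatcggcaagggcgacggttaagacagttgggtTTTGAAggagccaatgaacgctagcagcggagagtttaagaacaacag
Cenpf: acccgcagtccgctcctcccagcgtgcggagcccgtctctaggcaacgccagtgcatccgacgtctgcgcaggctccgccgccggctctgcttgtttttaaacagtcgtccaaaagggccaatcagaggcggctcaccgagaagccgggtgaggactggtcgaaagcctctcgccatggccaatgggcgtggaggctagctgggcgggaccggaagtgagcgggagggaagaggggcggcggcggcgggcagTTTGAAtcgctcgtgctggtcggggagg
Ccnb2: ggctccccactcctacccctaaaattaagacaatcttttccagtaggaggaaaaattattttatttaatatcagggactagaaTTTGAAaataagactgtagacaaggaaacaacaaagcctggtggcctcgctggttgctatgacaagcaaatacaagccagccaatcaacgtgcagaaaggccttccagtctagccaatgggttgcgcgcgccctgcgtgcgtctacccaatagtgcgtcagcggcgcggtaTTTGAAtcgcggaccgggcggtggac
In all 3 genes a match lies within 20 bases of the annotated start, and their levels under TGF-beta are those given above.

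Long noncoding RNAs were thinly covered: of 1383 tested, 14.3% reached 5 CPM in either group, against 78.4% of protein-coding genes. Of the 1383, 191 were called higher (13.8%, against 23.4% of all genes) and 131 lower (9.47%, against 24.8%). Mir155hg (chr16:84703167-84715245, plus strand, mm10), the host transcript of miR-155, rose from 1.28, 1.07 and 1.31 to 10.6, 10.8 and 7.75 CPM (7.9-fold, log2 fold change 2.98 ± 0.19, adjusted p = 1.46e-11). Dnm3os (chr1:162217623-162225550, plus strand), which lies antisense within Dnm3 and hosts miR-199a and miR-214, rose from 13.5, 13.3 and 11.4 to 47.8, 48.5 and 41.3 CPM (3.6-fold), while Dnm3 did not pass (log2 fold change 0.029, adjusted p = 0.918). It was not stated whether counting used strand, and reads of a gene and its antisense partner cannot then be told apart. The mature miRNAs were not measured here, and the 5p strand of miR-155 with both miR-199a strands and the 3p strand of miR-214 is printed to show what these hosts carry, with seed bases 2 to 8 in capitals (RefSeq, GRCm38.p6). No seed is shared among them.
mmu-miR-155-5p: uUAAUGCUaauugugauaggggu
mmu-miR-199a-5p: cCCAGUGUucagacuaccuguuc
mmu-miR-199a-3p: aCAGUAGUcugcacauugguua
mmu-miR-214-3p: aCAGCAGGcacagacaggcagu

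Meg3, Rian and Mirg, long noncoding RNAs of the imprinted Dlk1-Dio3 region, were each called higher. Meg3 (chr12:109541001-109571726, plus strand) went from 32.7, 31.2 and 28.4 to 101, 98.2 and 83.8 CPM (3.07-fold, log2 fold change 1.62 ± 0.10), its neighbour Rian (chr12:109603940-109661716, plus strand) from 74.2, 72.7 and 71.8 to 146, 148 and 129 CPM, and Mirg (chr12:109729764-109749460, plus strand) from 1.38, 1.12 and 1.26 to 1.74, 2.63 and 2.08 CPM. Rtl1, the coding gene nearest to Meg3, was called higher at few reads (log2 fold change 1.82, adjusted p = 0.00680). Malat1 (chr19:5795690-5802672, minus strand), an abundant nuclear RNA, rose 1.79-fold, from 1092, 1198 and 1171 to 2295, 2125 and 1760 CPM. Neat1 (chr19:5824708-5845478, minus strand), the RNA of paraspeckles, was at 298, 279.8 and 254 CPM unstimulated and 338, 319.8 and 317 CPM under TGF-beta and passed narrowly (log2 fold change 0.23, adjusted p = 0.0269), a call lost without unstimulated replicate 3 (0.125) or TGF-beta replicate 1 (0.082) and with upper-quartile scaling (0.0614). H19 (chr7:142575529-142578143, minus strand), a fetal imprinted RNA, fell from 6.19, 4.57 and 4.89 to 1.62, 1.67 and 1.39 CPM (3.34-fold lower), and Lockd (chr6:134929092-134956798, plus strand), which lies 3579 bases from Cdkn1b, fell from 6.32, 5.38 and 5.57 to 2.73, 2.74 and 2.6 CPM, while Cdkn1b itself did not pass (adjusted p = 0.0797). Less studied transcripts moved as much. Gm50321 (chr19:9828899-9836897, minus strand) rose from 13.7, 13 and 11.4 to 42.4, 39.6 and 39 CPM, Gm32027 (chr19:36215016-36264437, minus strand) from 3.85, 3.7 and 4.12 to 12.5, 14.1 and 10.9 CPM, and 1700003M07Rik (chr4:129960374-129963657, plus strand) fell from 11.1, 10.3 and 10.7 to 3.19, 3.12 and 3.59 CPM.

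Beyond the lists, the rule for named genes took ranks 6 to 15 of the called rises and falls. On the rising side Acan, the cartilage proteoglycan aggrecan, went from 2.11, 2.44 and 1.36 to 110.1, 114 and 98.5 CPM (54.7-fold, log2 fold change 5.77 ± 0.18). Adamtsl2, a microfibril-associated protein that binds latent TGF-beta complexes, rose from 0.0458, 0.203 and 0.0968 to 7.02, 8.55 and 6.42 CPM, and Ccl17, a chemokine that attracts T cells, from 0.825, 1.17 and 0.533 to 20.3, 18.1 and 22.7 CPM (24.1-fold). Cd40, a costimulatory receptor, rose from 0.137, 0.355 and 0.436 to 6.9, 7.2 and 7.64 CPM, Slc6a2, the noradrenaline transporter, from 0.137, 0.152 and 0.387 to 5.45, 4.95 and 6.08 CPM, and Olfm2, an olfactomedin, from 0.458, 0.406 and 0.339 to 10.6, 9.89 and 9.89 CPM. Several of these were close to the lower limit before the stimulus, which leaves their folds imprecise: for Slc6a2 the standard error was 0.41 on the log2 scale. The lymphocyte markers stayed near 0, with sums of at most 0.0968 CPM unstimulated and 0.116 CPM under TGF-beta.

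On the falling side Crct1, a gene of the epidermal cornification cluster, went from 105, 94.6 and 93.6 to 8.18, 9.46 and 9.2 CPM (10.9-fold lower, log2 fold change -3.44 ± 0.076), Pkhd1l1, a large membrane protein, from 73.6, 67.4 and 69.4 to 8.41, 8.82 and 7.23 CPM, and Akr1c18, a steroid-reducing enzyme, from 7.33, 8.57 and 9.2 to 0.986, 0.860 and 1.1 CPM. By absolute loss of CPM the leading genes outside the cyclins included Tm4sf1, a tetraspanin-like membrane protein, from 2658, 2699 and 2747 to 833, 917 and 968 CPM, Serpinb9b, a granzyme inhibitor family member, from 1587, 1528 and 1548 to 413, 409.6 and 411 CPM, and Anxa1, annexin A1, from 1810, 1873 and 1869 to 776, 790.2 and 762 CPM. These 3 genes fell 2.98-, 3.78- and 2.38-fold. Timp2, an inhibitor of matrix proteases, fell 1.67-fold and Ftl1, the ferritin light chain, 1.54-fold.

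The same stimulus was measured in 6 other libraries, from cells given Itgav siRNA, which entered the comparison above only through the shared estimate of spread, the scaling and the low-count filter. There 9101 genes were called (57.5%), 4421 higher (27.9%) and 4680 lower (29.6%). Of the 870 genes at least 2-fold higher in scramble cells, 703 (80.8%) were called higher with Itgav siRNA as well and 6 were called lower. Of the 1076 genes at least 2-fold lower, 908 (84.4%) were called lower with Itgav siRNA and 14 higher. A difference of the 2 responses was itself called for 3678 genes (23.2%), among them 315 of the 870 and 353 of the 1076. The difference was called and at least 1 on the log2 scale upward for 354 genes (2.24%) and downward for 362 genes (2.29%). Etv1 showed opposite calls: the log2 fold change was 0.93 with scramble and -0.57 with Itgav siRNA (difference -1.50, adjusted p = 2.55e-10). For Igf1 the values were 3.81 and 5.57 (difference 1.77, adjusted p = 2.31e-10), for Erg 2.69 and 2.94 (difference 0.25, adjusted p = 0.296), and for Bcat1 3.55 and 4.07 (difference 0.52, adjusted p = 0.0105).

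**Figure D5:**
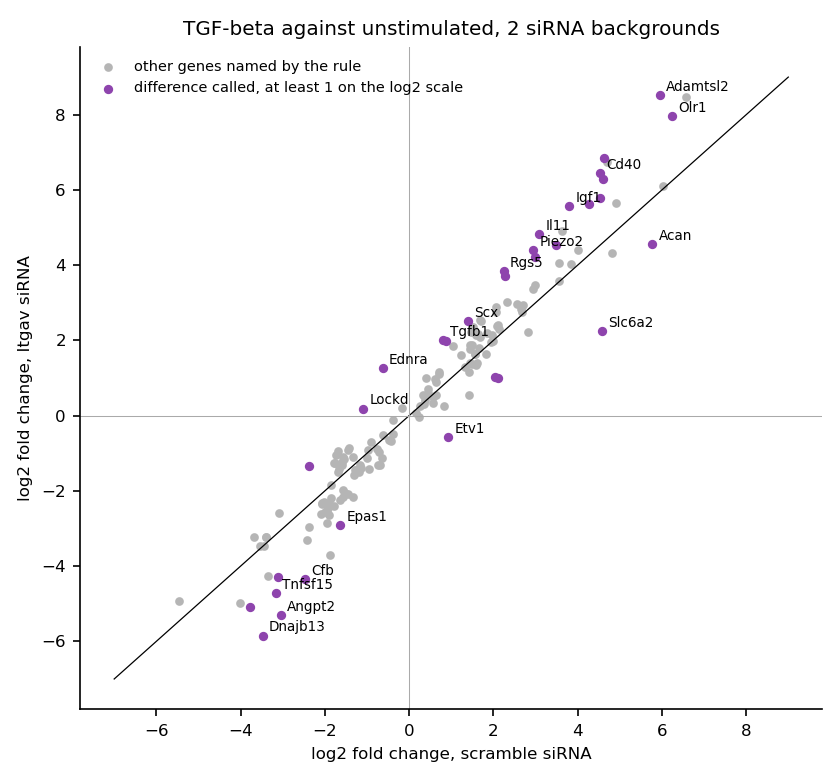
Log2 fold change of TGF-beta against unstimulated for the 166 genes named by the rule, with scramble siRNA on the horizontal axis and Itgav siRNA on the vertical axis. The line marks equal responses, and purple points are the 32 genes whose difference was called and at least 1 on the log2 scale. Most points lie in the quadrants of equal sign, and Etv1, at 0.93 and -0.57, lies below 0 on the vertical axis only.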

How the data were processed

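Gene counts came from the authors' deposited table of estimated counts, made with HISAT2 2.2.1 and StringTie 2.1.6 on mm10 per the submitters' processing notes. Of its nonzero values 76.2% were whole, and all were rounded here. Strand setting and annotation release were not given in the sources used here. Genes passing edgeR's filter at a minimum count of 10 (15832 genes, at least 99.91% of counts) were scaled by TMM (factors 0.925 to 1.07) and fitted over all 18 libraries in 6 groups of 3, with 12 residual degrees of freedom, by edgeR 4.0.16's quasi-likelihood test in R 4.3.3. Calls use Benjamini-Hochberg adjusted p below 0.05. The biological coefficient of variation was 6.01%. Library totals were 18339304 to 21592916 for the 6 libraries compared, and their number, 3 a group, limits the precision. The script was tested on simulated data.

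The naming rule took 166 genes: a panel of 41 (40 tested), up to 3 called rises and 3 falls per list among genes of at least 5 CPM in the higher group with no overlap between groups, ranks 6 to 15 of all rises and falls by the same conditions, the 10 largest gains and losses of CPM, and up to 6 long noncoding RNAs a side. Some of these genes are not reported here. Other genes were named after their values were seen. The members and the 16 lists were chosen with earlier results of these data known. Coordinates are from GENCODE M21 (GRCm38), which held 90.8% of the gene identifiers, and promoters and miRNAs from RefSeq (GRCm38.p6). Alternatives were other filters, scalings, DESeq2 1.42.0, fewer libraries, a replicate block, summed transcripts and leaving out each library.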

Additional observations from a re-analysis of the deposited data

Results flagged for a closer look

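The response to TGF-beta was set beside that in cells given Itgav siRNA, and the difference between them was tested in edgeR as an interaction. Of the 166 genes named by the rule, 91 had a called difference, and in 32 of these it was at least 1 on the log2 scale. That size was chosen to keep the account short, and 31 of the 32 are given here. Over all genes 23.2% had a called difference, with 2.24% at least 1 upward and 2.29% at least 1 downward. Most of the 166 were picked for large responses in scramble cells, so their counts are no result about these genes as a set. Of the 165 genes called in scramble cells, 159 were called in the same direction with Itgav siRNA. Differences are given below as the log2 fold change with Itgav siRNA minus that with scramble, so a negative value is a smaller rise or a deeper fall.

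Negative differences among genes that fell with scramble siRNA were those of Dnajb13 (-2.37), Angpt2 (-2.26), Cfb (-1.86), Tnfsf15 (-1.56), Selenbp1 (-1.32), Epas1 (-1.28) and Pkhd1l1 (-1.18). For Angpt2 the log2 fold change was -3.05 with scramble and -5.31 with Itgav siRNA, and for Epas1 it was -1.63 and -2.91. Among genes that rose with scramble siRNA, negative differences were those of Slc6a2 (-2.33), Etv1 (-1.50), Acan (-1.21), Trib3 (-1.12) and Gm6277 (-1.01). Etv1 alone of these 5 was called lower with Itgav siRNA.

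Positive differences among genes that rose with scramble siRNA were those of Adamtsl2 (2.57), Olfm2 (2.22), Cd40 (1.90), Igf1 (1.77), Il11 (1.74), Olr1 (1.71), Ccl17 (1.70), Rgs5 (1.61), Piezo2 (1.46), Tnfrsf11b (1.43), Cthrc1 (1.37), C1qtnf3 (1.26), Abcg1 (1.22), Tgfb1 (1.21), Scx (1.11) and Fgf2 (1.09). For Igf1 the log2 fold change was 3.81 with scramble and 5.57 with Itgav siRNA, and for Il11 it was 3.09 and 4.83. Igfbp4 (1.04) and Lockd (1.28) fell with scramble siRNA and had a positive difference. Ednra (1.89), at few reads, did not pass with scramble (-0.63) and was called higher with Itgav siRNA (1.26).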

How the results depend on the processing

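No count of called genes moved by more than 1.5 times under any alternative, and no list's count did. List medians could move more: that of chemokines and complement ran from -0.45 to -0.11. Leaving out each of the compared libraries in turn gave 3371 to 3684 genes higher, 3424 to 3804 lower, 823 to 884 at least 2-fold higher and 1026 to 1067 at least 2-fold lower, with 8480 to 8599 calls in Itgav siRNA cells and 3044 to 3652 called differences. With replicate number as a block the fit called 3764 genes higher and 4015 lower, and gave 9217 calls in Itgav siRNA cells and 3893 called differences. The numbers did not pair the libraries (correlations of -0.0178, 0.00638 and -0.0444 between same-numbered deviations), and the block is given for completeness. Upper-quartile scaling gave 3352 higher and 4397 lower, DESeq2's test 3711 and 3694, and no filter 3627 and 3873. Summed transcripts gave the same counts of calls. With all libraries kept, the other settings gave 641 to 956 genes at least 2-fold higher and 856 to 1148 at least 2-fold lower. The lowest of these counts came from a filter at a mean of at least 1 CPM, which leaves out genes of low count. Of 2323 values of named genes under these alternatives, 2320 kept direction and call, and the other 3 were Neat1. Depth limits genes under about 1 CPM, where folds have wide errors.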
